A study of Homo sapiens with 6 samples.

Results

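The SR proteins and hnRNPs are the classic RNA-binding regulators of pre-mRNA splicing, and their genes are described here in SK-N-BE(2)-C cells, an established human neuroblastoma line. Members were the genes whose symbol was SRSF followed by a number, or HNRNP followed by letters and digits with no hyphen. This gave 38 of the 36601 genes in the deposited matrices, 12 SRSF genes and 26 HNRNP genes. The cells had been exposed to DMSO (the solvent control), to TSA (the usual abbreviation of trichostatin A, which blocks the catalytic site of histone deacetylases, HDACs) or to E6R, and each treatment had 2 single-cell libraries. By its title the series is about inhibiting HDAC complexes without touching their enzymatic activity. The chemical nature of E6R and the doses and durations of both treatments are not given in the sources used here. Whether TSA and E6R were matched by dose or time is therefore not known.

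SR proteins bind exonic enhancers through RNA recognition motifs and recruit the spliceosome through a tail of repeated arginine and serine residues, which the SRPK and CLK kinases phosphorylate. hnRNPs coat nascent transcripts, often bind exonic or intronic silencers, and also take part in mRNA export, stability and translation. Many members limit their own mRNA by splicing in exons that expose it to nonsense-mediated decay, and several are abundant in MYC-driven and fast-dividing cells. The labels do not name isoforms, and a gene-level count of transcript ends cannot tell productive from unproductive mRNA of the same gene.

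In Seq-Well S3, cells settle one by one in wells that each hold a bead with its own barcode. The data are counts of unique molecular identifiers (UMIs), each standing for a captured mRNA molecule, summed here over the cells of a library. After the cell filter there were 1861 to 3946 cells per library, with 4206366 to 26180262 UMIs, the DMSO libraries being the shallowest. Between 11 and 58 barcodes were shared by any pair of libraries, at most 2.11% of the smaller library. All 12 adrenergic neuroblastoma markers were detected in every library, with a summed level of 4171 to 6547 TMM-scaled CPM (UMIs of a gene as a share of its library, multiplied up to a common total and corrected by edgeR's TMM factor). The 6 leukocyte markers summed to 1.05 to 3.34 CPM. The 5 epithelial markers summed to 28.3 and 75.9 CPM under DMSO, 10.4 and 10.9 under TSA, and 43.5 and 94.7 under E6R, with 0 to 2 of them at 0 in a library, and KRT19 was lower under TSA (-2.37, edgeR adjusted p = 0.0143). The 10 mesenchymal or fibroblast markers summed to 518 to 700 CPM under DMSO, 880 to 983 under TSA and 791 to 1186 under E6R. Of these, 1 marker, POSTN, was at 0 in every library. THY1 alone gave 436 and 456 CPM under DMSO, 430 and 407 under TSA, and 648 and 726 under E6R. FN1 had 114 and 19.3, 380 and 373, and 200 and 13.1 CPM in the same order. DCN differed between replicates, with 56.9 and 1.91 CPM under DMSO and 165 and 1.92 under E6R. For TSA only COL1A2 passed, as lower (-3.89, edgeR adjusted p = 0.0244), on few UMIs. Mitochondrial genes gave 5.83% and 6.20% of UMIs under DMSO, 6.08% and 9.71% under TSA, and 1.55% and 1.51% under E6R. The part of these marker levels and shares in the results below was not tested. The deposited data of TSA replicate 2 carry the tag reWTA, which the labels do not explain. Nothing in the labels says that the replicates were separate cultures, so p-values measure the spread between these libraries, which may be technical.

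Members made up a smaller part of the mRNA under TSA and a larger part under E6R. They took 0.868% and 0.690% of UMIs in the DMSO libraries, 0.451% and 0.433% in the TSA libraries, and 1.11% and 0.919% in the E6R libraries. In these sums the 3 treatments did not overlap. The 1% of cells with most UMIs gave 22.5% of UMIs in E6R replicate 2 and 8.77% to 15.6% elsewhere. With cells thinned to equal depth for the mitotic comparison below, DMSO and E6R overlapped among cells with 3 or more mitosis UMIs. DMSO replicate 1 had 0.885% there and E6R replicate 2 had 0.868%. Among thinned cells without mitosis UMIs, both E6R libraries (0.893% and 0.735%) lay above both DMSO libraries (0.676% and 0.559%). Over all cells kept, the HNRNP genes alone took 0.622% ± 0.102 of UMIs with DMSO (SD, n = 2 libraries), 0.340% ± 0.00552 with TSA and 0.812% ± 0.119 with E6R. The SRSF genes took 0.157% ± 0.0237, 0.102% ± 0.007 and 0.201% ± 0.0146 in the same order. On the TMM scale the sum over members was 7038 ± 1010 CPM under DMSO, 4956 ± 92.6 under TSA and 10040 ± 1410 under E6R. These sums are given as a description, without a test, and in sums over cells a smaller number of expressing cells and less RNA per cell cannot be told apart.

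**Figure D1:**
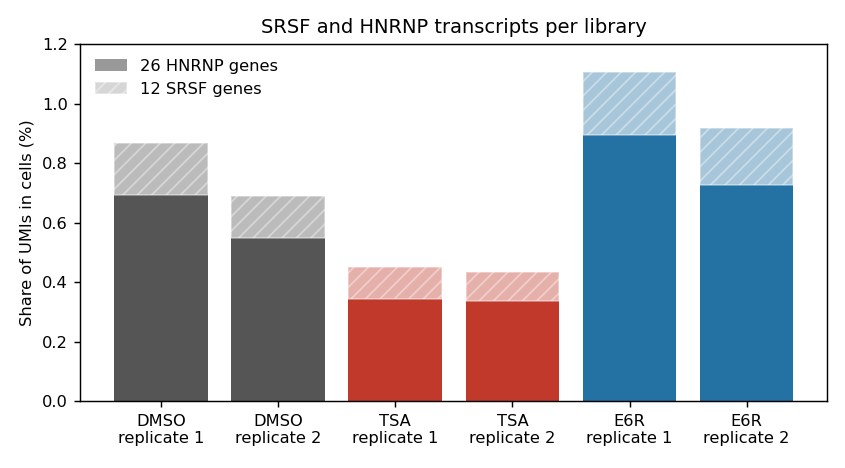
Share of the UMIs in cells (y axis, percent) taken by the 26 HNRNP genes (solid) and the 12 SRSF genes (hatched, stacked on top) in each of the 6 libraries (x axis). Both TSA bars, 0.451% and 0.433% in all, lie below both DMSO bars, and both E6R bars, 1.11% and 0.919%, lie above them.

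Of the 38 members, 34 passed the low-count filter and were tested. The 4 left out were HNRNPCL1, HNRNPCL2, HNRNPCL3 and HNRNPCL4, relatives of HNRNPC whose coding sequence lies in 1 exon in GENCODE 29. They had 17, 8, 2 and 0 UMIs in all 6 libraries together. For HNRNPCL4 a count of 0 among 78561627 UMIs allows a level of up to 0.0382 CPM, counting error only. The tested members ran from a mean of 7.35 CPM for HNRNPA1L2 to 1135 CPM for HNRNPA2B1 over the 6 libraries, and 31 of them had a mean of 20 CPM or more. All 38 are protein coding in GENCODE 29 and lie on 17 chromosomes. All 12 SRSF genes and 13 HNRNP genes have at least 1 annotated transcript of the nonsense-mediated decay class. HNRNPA1 has 74 named pseudogenes, HNRNPA3 has 16 and HNRNPC has 9. HNRNPA1L2 and HNRNPA1P48 are copies related to HNRNPA1 that code in 1 exon. Reads of such near-identical sequences can be assigned to the wrong copy, so the values of HNRNPA1, HNRNPA1L2 and HNRNPA1P48 are uncertain. Of the 38 members, 15 overlap a gene on the other strand, among them HNRNPA2B1, HNRNPA3, HNRNPAB, HNRNPD, HNRNPH3 and HNRNPM. Whether the counting used strand is not given in the sources used here. Reads from the stretch that such a pair shares may therefore have been given to the wrong gene. How many of the counted reads lie in such stretches was not tested.

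With TSA, the inhibitor of HDAC catalysis, most members that passed the test were lower than in the solvent control. With edgeR's quasi-likelihood test over 16763 genes, 16 of the 34 tested members passed an adjusted p of 0.05, 14 lower and 2 higher under TSA. Over all genes 29.7% passed, 13.5% lower and 16.2% higher. Of the genes that averaged at least 20 CPM over the libraries, 18.3% passed as lower, against 14 of 31 members. The median log2 fold change over the tested members was -0.60, and over all genes it was -0.01. With total counts in place of TMM the median of all genes moved to -0.32, and 17 members were lower and 1 higher. Of all 16763 genes 3361 were then lower and 1717 higher, so the genes as a whole leaned downward there too. With size factors of the RLE kind 15 members were lower and 2 higher, against 2400 and 2567 of all genes. More members were called lower than higher under each scaling tried. In 23 members both TSA libraries lay below both DMSO libraries, against 34.6% of all genes, and in 5 members they lay above, against 36.7%. The numbers called rested on single libraries: 2 members passed without TSA replicate 2 (the library with the unexplained tag), 5 without TSA replicate 1 and 7 without DMSO replicate 1. In cells with no UMI of 29 mitosis genes, a class described with the mitotic comparison, 1 of 29 members passed. For that class of 34 to 200 cells per library, and with a library left out, no share of all genes is given here. Whether calls fell alike over all genes in those fits is therefore not shown. The member median stayed between -0.68 and -0.45 with any single library left out.

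Among the SR proteins, 4 of 12 fell under TSA and none of the other 8 passed. SRSF8 (ENSG00000263465; GRCh38 chromosome 11, 95067197 to 95071224, plus strand), a gene related to SRSF2 whose coding sequence lies in 1 exon, had 87.1 and 46.3 CPM under DMSO, 9.57 and 11.2 under TSA, and 81.3 and 70.5 under E6R. The TSA libraries were far below the other 4. Its log2 fold change for TSA against DMSO was -2.68 (SE 0.32, adjusted p = 0.00169), a 6.41-fold lower level. SRSF5, an SR protein with a pair of RNA recognition motifs, had 94.3 and 95.1 CPM under DMSO and 52.0 and 45.0 under TSA, and fell as well (-0.96, SE 0.18, adjusted p = 0.00777). SRSF4, its close relative, had 62.3 and 63.1 CPM under DMSO and 29.7 and 36.9 under TSA (log2 fold change -0.91, SE 0.23, adjusted p = 0.0213). SRSF7, an adaptor between splicing and mRNA export that carries a zinc knuckle, had 124 and 96.8 CPM under DMSO and 70.7 and 50.9 under TSA (-0.86, SE 0.23, adjusted p = 0.0266). In each of SRSF4, SRSF5 and SRSF7 both TSA libraries lay below both DMSO libraries. SRSF8 kept its call with any single library left out. It missed the threshold among cells without mitosis UMIs, where the fitted value was -3.21 (adjusted p = 0.0897). That value rested on few molecules, from 34 to 200 thinned cells per library. In this class SRSF8 had 112.7 and 0 CPM under DMSO and 5.21 and 14.25 under TSA, so the groups overlapped.

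The best known SR proteins did not pass for TSA. SRSF1, the founding member and a proto-oncogene, had 85.4 and 98.5 CPM under DMSO and 61.5 and 56.9 under TSA, and just missed the threshold (-0.64, adjusted p = 0.0521). It passed in 9 of its 19 alternatives, DESeq2 among them. SRSF2, also known as SC35 and a marker of nuclear speckles, had 153 and 129 CPM under DMSO and 112 and 77.1 under TSA (-0.57, adjusted p = 0.109). SRSF3, the smallest SR protein and an mRNA export adaptor, had 279 and 222 CPM under DMSO and 263 and 290 under TSA, so the groups overlapped (0.14, adjusted p = 0.646). The log2 fold changes of the remaining SRSF genes, SRSF6, SRSF9, SRSF10, SRSF11 and SRSF12, lay between -0.62 and 0.30 and their adjusted p between 0.237 and 0.820.

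Among the hnRNPs, 10 of 22 tested fell under TSA and 2 rose. HNRNPH3 (ENSG00000096746; chromosome 10, 68331174 to 68343191, plus strand), of the subfamily that binds runs of G, had 141 and 116 CPM under DMSO, 30.2 and 38.1 under TSA, and 201 and 158 under E6R. Both TSA libraries were below the other 4, and the log2 fold change for TSA against DMSO was -1.91 (SE 0.23, adjusted p = 0.00166). HNRNPDL (ENSG00000152795; chromosome 4, 82422564 to 82430408, minus strand) had 206 and 136 CPM under DMSO, 62.6 and 52.3 under TSA, and 262 and 256 under E6R (-1.57, SE 0.24, adjusted p = 0.00386). HNRNPD (ENSG00000138668; chromosome 4, 82352498 to 82374503, minus strand), also known as AUF1, promotes decay of mRNAs with AU-rich elements. It had 337 and 280 CPM under DMSO, 145 and 112 under TSA, and 528 and 444 under E6R (-1.26, SE 0.22, adjusted p = 0.00609). HNRNPD and its relative HNRNPDL are neighbours on the same strand, 48060 bases apart, with 2 annotated genes wholly between them in GENCODE 29, and both fell. HNRNPH3 kept its call with any single library left out. It missed the threshold among cells without mitosis UMIs, where the fitted value was -2.90 (adjusted p = 0.0795). That value too rested on few molecules, with 65.2 and 47.35 CPM under DMSO and 10.4 and 0 under TSA in this class. HNRNPD and HNRNPDL lost their calls in this class and without TSA replicate 2.

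Of the A/B subfamily, which binds UAG-containing silencers and holds some of the most abundant nuclear proteins, HNRNPA2B1, HNRNPA1, HNRNPA3 and HNRNPAB fell, while HNRNPA0, HNRNPA1L2 and HNRNPA1P48 did not pass. HNRNPA2B1 (ENSG00000122566; chromosome 7, 26173057 to 26201529, minus strand, overlapping CBX3 and NFE2L3 on the other strand) had 1507 and 1078 CPM under DMSO, 488 and 514 under TSA, and 1818 and 1409 under E6R. Its log2 fold change for TSA was -1.37 (SE 0.25, adjusted p = 0.00636). HNRNPA1 (ENSG00000135486; chromosome 12, 54280193 to 54287088, plus strand), which antagonises SRSF1 in the choice of splice sites, had 270 and 199 CPM under DMSO and 119 and 82.4 under TSA (-1.22, SE 0.31, adjusted p = 0.0210). HNRNPA3 had 413 and 213 CPM under DMSO and 147 and 112 under TSA (-1.27, SE 0.36, adjusted p = 0.0327). HNRNPAB had 236 and 273 CPM under DMSO and 160 and 159 under TSA (-0.67, SE 0.19, adjusted p = 0.0342). HNRNPA0 was not called, with 104 and 78.0 CPM under DMSO and 75.3 and 63.1 under TSA (adjusted p = 0.317). The other 3 hnRNPs that fell were HNRNPM (-1.09), HNRNPUL1 (-0.93) and HNRNPR (-0.67), with adjusted p of 0.0115, 0.0129 and 0.0308.

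HNRNPH2 and HNRNPC were the members that rose under TSA. HNRNPH2 (ENSG00000126945; chromosome X, 101408295 to 101414133, plus strand), with its coding sequence in 1 exon, had 29.3 and 27.0 CPM under DMSO, 79.3 and 91.9 under TSA, and 71.5 and 38.8 under E6R. The DMSO libraries were the lowest, and the log2 fold change for TSA was 1.60 (SE 0.30, adjusted p = 0.00756). Its relatives HNRNPH1 and HNRNPF did not pass (-0.25 and 0.31, adjusted p = 0.394 and 0.245), and HNRNPH3 fell as above. Whether the H subfamily genes differed from each other was not tested. GENCODE 29 also has a read-through gene over HNRNPH2, RPL36A-HNRNPH2, which was not counted separately in the matrices. HNRNPC (ENSG00000092199; chromosome 14, 21209136 to 21269494, minus strand), which packages nascent RNA as a tetramer and binds runs of U, had 550 and 434 CPM under DMSO, 776 and 830 under TSA, and 800 and 720 under E6R. It rose for TSA (0.71, SE 0.21, adjusted p = 0.0368) and kept the call in 10 of 19 alternatives, losing it with total counts (0.39, adjusted p = 0.196) among others. HNRNPH2 lost its call without DMSO replicate 2 and without TSA replicate 2.

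The abundant HNRNPU and HNRNPK were not called for TSA. HNRNPU, a chromatin-associated scaffold also known as SAF-A, had 671 and 621 CPM under DMSO and 487 and 553 under TSA (-0.31, adjusted p = 0.274). HNRNPK, a protein with KH domains that binds runs of C, had 427 and 336 CPM under DMSO and 306 and 363 under TSA, with overlapping groups (-0.19, adjusted p = 0.527). Between -0.69 and 0.11 lay the log2 fold changes of the other hnRNPs that did not pass and are not named above, HNRNPA1L2, HNRNPA1P48, HNRNPL, HNRNPLL and HNRNPUL2, with adjusted p from 0.0780 to 0.909.

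**Figure D2:**
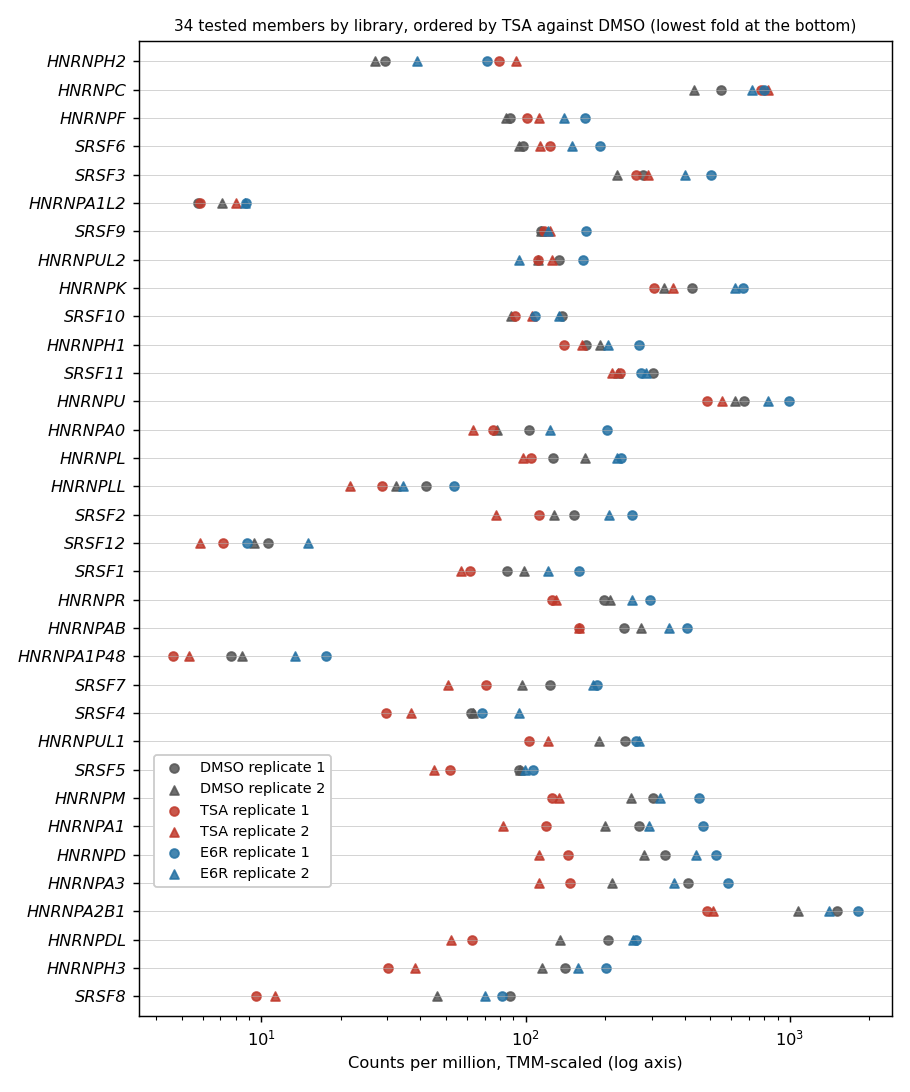
TMM-scaled CPM (x axis, log scale) of the 34 tested members (y axis, ordered by the TSA against DMSO fold change), with 1 point per library, circles for replicate 1 and triangles for replicate 2. TSA points (red) lie left of the DMSO points (grey) in the lower rows such as SRSF8, at 9.57 and 11.2 against 87.1 and 46.3 CPM, and right of them in HNRNPH2 and HNRNPC at the top.

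The sequence before the RefSeq start of the members was searched for short motifs, among them the E-box, the motif read by the MYC family. The line is known for its amplified MYCN gene. MYCN had 394 and 313 CPM under DMSO, 215 and 291 under TSA, and 733 and 657 under E6R. It did not pass for TSA against DMSO (-0.48, edgeR adjusted p = 0.148), and its part in the member levels was not tested. RefSeq's table (GRCh38.p14) gave the 250 bases before the start for 34 of the 38 members and for 35116 genes in all. The RefSeq start is not always that of GENCODE 29, whose gene positions are printed here: 8 of the 34 windows lie wholly inside the GENCODE gene, 17 partly and 9 outside it. Members had a median of 25 CpG pairs in these windows, against 11 over all windows. The E-box CACGTG, which reads the same on both strands, was present in 6 members (17.6%) and in 6.34% of all windows. It was found in 5 of the 13 members with a window that fell under TSA, in 1 of the 2 that rose, and in 0 of the 16 that did not pass. The E-box was singled out for printing after these counts were seen, and a match is a run of letters, not a measured binding site. Its letters hold a CpG pair, in which the member windows are rich. No share is given for expressed genes, for windows of like CpG number or for all genes that fell under TSA. The split between the members therefore has no background beside it. For the CCAAT box (CCAAT, either strand) the shares were 50% of members and 32% of all windows. For the GC box (GGGCGG, either strand) they were 58.8% and 42.6%, for the ETS motif (CCGGAAG, either strand) 14.7% and 8.52%, and for the TATA motif (TATAAA, either strand) 14.7% and 10.7%. The cyclic AMP response element TGACGTCA, the same on both strands, was in 0 members and in 1.65% of all windows. The windows of HNRNPD (chr4:82373992-82374241, minus strand), HNRNPDL (chr4:82430226-82430475, minus strand) and HNRNPM (chr19:8444725-8444974, plus strand), which fell, and of HNRNPH2 (chrX:101407972-101408221, plus strand), which rose, are shown 5′ to 3′ with the E-box in capitals.
HNRNPD: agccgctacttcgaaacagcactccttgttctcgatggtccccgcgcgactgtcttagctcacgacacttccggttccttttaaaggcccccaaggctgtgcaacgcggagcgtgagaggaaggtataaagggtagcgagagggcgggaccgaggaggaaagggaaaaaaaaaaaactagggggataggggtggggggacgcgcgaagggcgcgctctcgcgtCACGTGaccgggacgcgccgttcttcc
HNRNPDL: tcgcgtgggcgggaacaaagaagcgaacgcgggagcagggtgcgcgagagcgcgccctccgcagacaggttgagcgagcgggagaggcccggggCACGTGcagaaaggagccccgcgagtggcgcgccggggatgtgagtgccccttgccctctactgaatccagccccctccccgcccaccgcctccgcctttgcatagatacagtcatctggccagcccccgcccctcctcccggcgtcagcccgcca
HNRNPM: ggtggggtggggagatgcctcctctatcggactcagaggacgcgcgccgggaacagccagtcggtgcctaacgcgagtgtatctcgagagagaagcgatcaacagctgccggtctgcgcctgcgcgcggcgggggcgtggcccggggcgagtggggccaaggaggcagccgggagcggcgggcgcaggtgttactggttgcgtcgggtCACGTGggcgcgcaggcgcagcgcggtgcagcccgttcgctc
HNRNPH2: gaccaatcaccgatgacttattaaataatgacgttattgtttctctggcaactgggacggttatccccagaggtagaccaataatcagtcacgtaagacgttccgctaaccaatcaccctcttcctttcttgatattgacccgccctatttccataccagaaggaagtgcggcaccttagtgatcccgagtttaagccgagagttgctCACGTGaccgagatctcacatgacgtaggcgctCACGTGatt
HNRNPH2 has 2 copies of the E-box and the others have 1, so the letters were found in the windows of members that moved in either direction. Both copies in HNRNPH2 lie outside the GENCODE gene, and those of HNRNPD, HNRNPDL and HNRNPM lie inside it. HNRNPA3 and HNRNPH3, the other two members with an E-box, fell, and theirs also lie inside the GENCODE gene.

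With E6R the members leaned upward against the solvent control, and whether any passed depended on the filter and the tool. No member passed the edgeR threshold with the low-count filter, 0 of 34, as no gene did over the whole table (0%). All 34 fitted log2 fold changes were above 0, between 0.08 and 0.97, with a median of 0.53, where 52% of all genes, and 67% of those averaging at least 20 CPM, were above 0. At an unadjusted p under 0.05 there were 18 members higher and 0 lower, against 8.04% and 9.34% of all genes. Restricted to a mean of at least 20 CPM, it was 17 of 31 members against 14% of genes. In 26 members both E6R libraries lay above both DMSO libraries, and in 0 members below, where 24.6% and 22.7% of all genes did so. The unadjusted count was 8 with total counts, 8 without DMSO replicate 2, 10 without the 5% of cells with most UMIs and 4 with every cell thinned to 1000 UMIs, and with that thinning 29 members were above 0. For these settings no share of all genes is given here. Without the low-count filter edgeR called 11 members, all higher, against 3.47% of all 31532 genes called and 2.28% called higher. DESeq2 called 4 members at an adjusted p under 0.05, all higher, namely SRSF3, SRSF6, HNRNPF and HNRNPK, against 2.94% of the genes it tested, and 2.27% called higher.

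The members with the smallest adjusted p for E6R were SRSF3, SRSF6 and HNRNPF, singled out after their values were seen. SRSF3 had 279 and 222 CPM under DMSO and 503 and 403 under E6R, which is 0.85 on the log2 scale (SE 0.22, adjusted p = 0.205). SRSF6 had 98.2 and 94.5 CPM under DMSO and 191 and 150 under E6R (0.82, SE 0.20, adjusted p = 0.205). HNRNPF had 87.5 and 84.5 CPM under DMSO and 169 and 140 under E6R (0.84, SE 0.19, adjusted p = 0.205). In these 3 genes the E6R libraries lay above all 4 others. Among the genes named regardless of result, HNRNPK had 668 and 621 CPM under E6R (0.76, adjusted p = 0.206), SRSF1 159 and 122 CPM (0.61, adjusted p = 0.224) and SRSF2 252 and 207 CPM (0.71, adjusted p = 0.224). HNRNPC (0.63, adjusted p = 0.223), HNRNPA1 (0.71, adjusted p = 0.283) and HNRNPU (0.50, adjusted p = 0.268) also did not pass. HNRNPA2B1, the most abundant member by UMIs, overlapped between E6R and DMSO (0.32, adjusted p = 0.524). The fitted values nearest 0 were those of HNRNPUL2 (0.08), SRSF11 (0.09), SRSF10 (0.10) and SRSF5 (0.12).

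Set directly against TSA, E6R had higher levels of most members. Of the 34 tested members 23 were called and each was higher under E6R, 7 of 12 SRSF genes and 16 of 22 HNRNP genes, where 38.2% of all genes were called, 18.7% as higher and 19.5% as lower. In the set averaging at least 20 CPM the share called higher was 26.5%, against 22 of 31 members. The member median was 1.13, and the median of all genes was -0.09. In 30 tested members both E6R libraries lay above both TSA libraries, against 33.7% of all genes, and in 1 tested member below, against 38.9%. This comparison shares the TSA libraries with TSA against DMSO and the E6R libraries with E6R against DMSO, so it is no independent repeat of either. Among cells without mitosis UMIs, 34 to 200 per library, the number called was 6 of 29. Fewer members were also called without TSA replicate 2, which leaves 1 TSA library. For neither setting is a share of all genes given here, so whether calls fell alike over all genes is not shown.

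The widest differences between the compounds were in SRSF8 (log2 fold change 2.87, SE 0.32, adjusted p = 0.000789) and HNRNPH3 (2.40, SE 0.23, adjusted p = 0.000498), followed by HNRNPDL (2.17, SE 0.25, adjusted p = 0.000829), HNRNPA1 (1.92, SE 0.31, adjusted p = 0.00278), HNRNPD (1.92, SE 0.23, adjusted p = 0.000925) and HNRNPA3 (1.87, SE 0.37, adjusted p = 0.00599). SRSF8, HNRNPH3, HNRNPA1, HNRNPA2B1 (1.69, adjusted p = 0.00198) and SRSF7 (1.59, adjusted p = 0.00192) kept their call in all 19 alternatives. HNRNPA1P48, the copy of HNRNPA1, had 4.63 and 5.31 CPM under TSA and 17.6 and 13.4 under E6R (1.64, adjusted p = 0.00585). The smallest differences among called genes were in HNRNPH1 (0.65, SE 0.21, adjusted p = 0.0436), SRSF3 (0.71, SE 0.22, adjusted p = 0.0324), HNRNPU (0.81, SE 0.20, adjusted p = 0.0164), HNRNPK (0.95, SE 0.21, adjusted p = 0.0104), SRSF5 (1.09, SE 0.18, adjusted p = 0.00327) and HNRNPR (1.11, SE 0.19, adjusted p = 0.00334). SRSF1 (1.25, adjusted p = 0.00319) and SRSF2 (1.28, adjusted p = 0.00522) were called as well. HNRNPC did not pass between the compounds (-0.08, SE 0.21, adjusted p = 0.784), and HNRNPH2, the only tested member with both TSA libraries above both E6R libraries, had -0.64 (SE 0.29, adjusted p = 0.118).

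**Figure D3:**
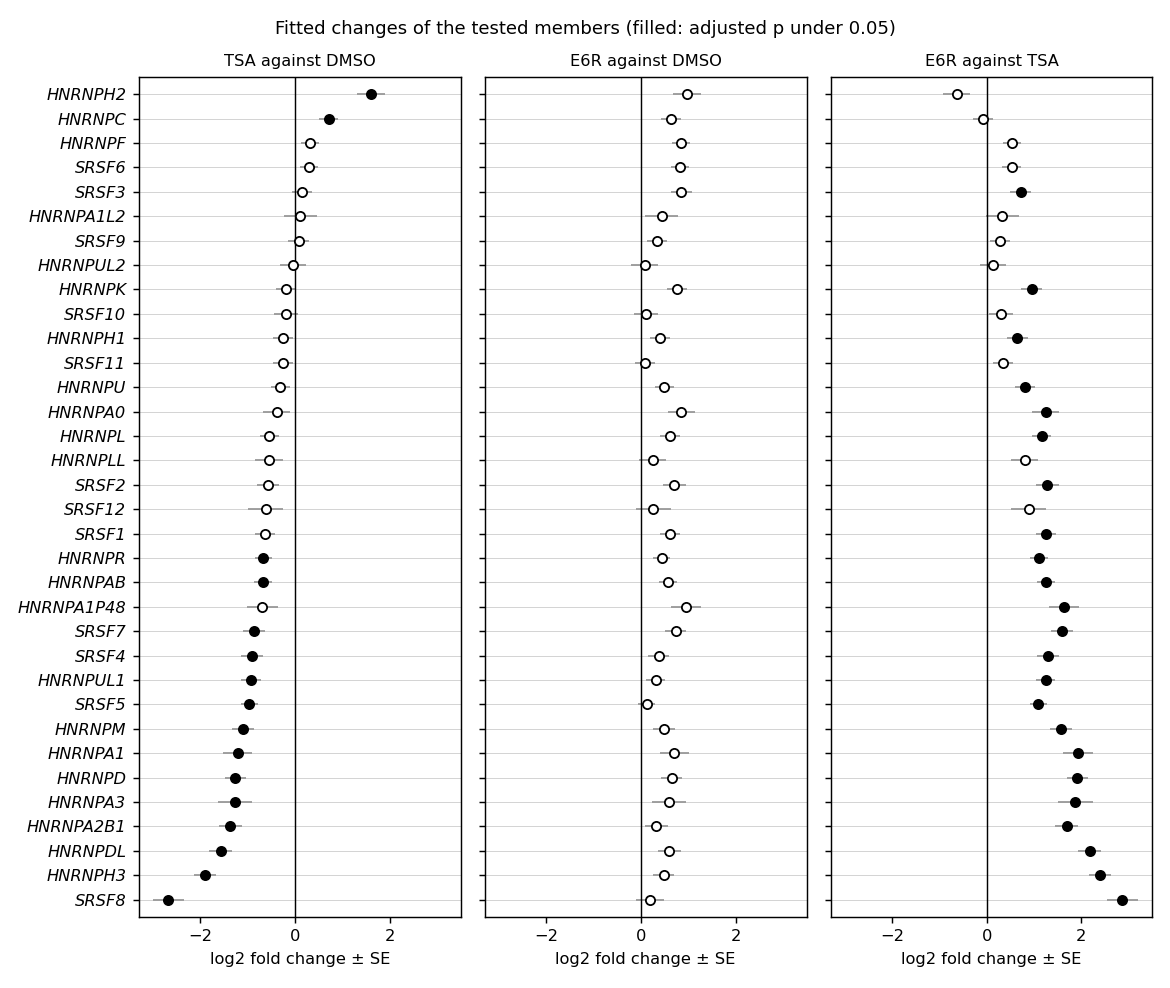
Fitted log2 fold change (x axis) with its standard error for the 34 tested members (y axis, same order in each panel) in the 3 comparisons, filled where the edgeR adjusted p was under 0.05. For TSA against DMSO 14 members are filled on the left and 2 on the right, for E6R against DMSO all 34 lie right of 0 with none filled, and for E6R against TSA 23 are filled on the right.

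Other splicing genes, from lists of related functions, were called in both directions under TSA, to be read against the 16.2% of all genes called higher and 13.5% called lower. Of 35 genes of the core small nuclear ribonucleoproteins and branch-site factors, 7 rose and 4 fell, with a median log2 fold change of 0.35. The falls included SNRPD1 (-1.40, adjusted p = 0.00292), SNRPE (-1.33, adjusted p = 0.00637) and SNRPA1 (-1.29, adjusted p = 0.00301), small Sm or U2 proteins, and the rises included SNRNP200 (1.26, adjusted p = 0.00851), PRPF4 (1.08, adjusted p = 0.0101) and PRPF8 (1.04, adjusted p = 0.0205), all of the U4/U6 and U5 particles. SNRPD1 had 87.5 and 89.1 CPM under DMSO, 38.1 and 28.9 under TSA, and 131 and 134 under E6R. Of 17 SR-related proteins, kinases and import factors, 3 rose and 1 fell. SREK1, an SR-related protein, had 220 and 192 CPM under DMSO and 51.1 and 48.3 under TSA (-2.05, adjusted p = 0.00114). CLK2, a kinase of SR proteins, had 44.4 and 30.03 CPM under DMSO and 109.5 and 109.6 under TSA (1.56, adjusted p = 0.00343). SRPK1 (0.72, adjusted p = 0.0311) and CLK3 (0.68, adjusted p = 0.0352) rose too.

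Of 15 hnRNP-type proteins with other symbols, 5 fell under TSA, RBMXL1 (-0.91) and EWSR1 (-0.88) among them, and KHSRP rose (0.62), with adjusted p of 0.0439, 0.0143 and 0.0419. Of 18 tested neural and tissue splicing regulators, 6 fell and 1 rose. The neuronal RNA-binding ELAVL4 (-2.76, adjusted p = 0.00113) and NOVA1 (-2.14, adjusted p = 0.00342) were among the falls, and NOVA2 rose (3.30, adjusted p = 0.0201). CELF2 was called lower as well (adjusted p = 0.0200) but on few molecules, 5 and 6 UMIs under DMSO and 0 in both TSA libraries. Of 10 nonsense-mediated decay factors, 2 fell, SMG9 (-1.99) and UPF3A (-0.99), and SMG8 rose (1.19), with adjusted p of 0.00191, 0.00928 and 0.00898. For E6R against DMSO edgeR called 0 genes of these 5 lists. At an unadjusted p under 0.05 it found 15, 3, 4, 2 and 0 of their genes higher and 0, 0, 0, 3 and 1 lower. Their medians for E6R were 0.45, 0.24, 0.40, 0.45 and -0.07 in the order given, against 0.53 for the members.

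Because several members are known to be higher in dividing cells, cells were also compared within each library by how many mitosis transcripts they held. Each cell was thinned to 1000 UMIs, and cells with 3 or more UMIs from 29 mitosis genes were set against cells with 0. No member is among those genes. Between treatments, 6 of the 29 mitosis genes rose and 4 fell for TSA against DMSO, and 0 passed for E6R against DMSO in edgeR, with 8 higher and 0 lower at an unadjusted p under 0.05. The higher class held 62.1% to 87.1% of the thinned cells of a library, and the class with 0 held 34 to 200 cells. Cells with fewer than 1000 UMIs, 503 to 1718 per library, were left out. A further 183 to 545 cells per library had 1 or 2 such UMIs, next to the limit. Before thinning, the class with 0 had the higher median of UMIs per cell in every library except TSA replicate 2 (1830 against 2300). It had 4426 against 2240 in E6R replicate 2, and 1832 against 1818 in DMSO replicate 1. The part of this depth difference in the result was not tested. Members took a larger share of UMIs in the higher class in 6 of 6 libraries, for example 0.885% against 0.676% in DMSO replicate 1, 0.421% against 0.385% in TSA replicate 2 and 1.09% against 0.893% in E6R replicate 1. Both classes of both TSA libraries stayed below both classes of every DMSO and E6R library.

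With the library as a block, 10 of 31 tested members passed as higher in the mitosis-rich cells and 0 as lower, where 7.2% of 9250 genes passed, 4.94% as higher and 2.26% as lower, the 29 mitosis genes included. SRSF3 had 389 and 184 CPM in the high and low class of DMSO replicate 1, 257 and 94.7 in DMSO replicate 2, 298 and 193 in TSA replicate 1, 303 and 214 in TSA replicate 2, 577 and 350 in E6R replicate 1, and 366 and 323 in E6R replicate 2. It was higher in 6 of 6 libraries (log2 fold change 0.68, SE 0.14, edgeR adjusted p = 0.000106). HNRNPAB (0.76, SE 0.16, adjusted p = 0.000106) was higher in 5 of 6 libraries, and HNRNPA2B1 (0.48, SE 0.11, adjusted p = 0.000593) in 6 of 6. SRSF3, HNRNPAB and HNRNPA2B1 kept the call in all 11 alternatives. HNRNPH3 had the largest fitted difference of the members (0.85, SE 0.22, adjusted p = 0.00356), and SRSF10, HNRNPD, HNRNPM, HNRNPA3, HNRNPU and HNRNPK passed with 0.65, 0.55, 0.54, 0.47, 0.43 and 0.38 and adjusted p of 0.0307, 0.00486, 0.00763, 0.0261, 0.00522 and 0.0494.

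SRSF1 (0.56, adjusted p = 0.133), SRSF2 (0.14, adjusted p = 0.771), HNRNPA1 (0.46, adjusted p = 0.0567) and HNRNPC (0.25, adjusted p = 0.197) did not pass. SRSF8, with the lowest fold change of the members for TSA, had -0.13 (adjusted p = 0.877). DESeq2 called 3 members, 6 were called with total counts, without DMSO replicate 1 or without E6R replicate 2, and 23 were called on the unthinned UMIs of the same cells. For these counts, and for genes averaging at least 20 CPM, no share of all genes is given in this comparison. The mesenchymal or fibroblast markers moved with this split: 3 of 7 tested passed as lower in the mitosis-rich class, COL3A1 (-1.82), FN1 (-0.93) and DCN (-0.74), and the 10 markers summed to 556 to 1120 CPM in the high class and 647 to 1720 in the low class. Of these markers 2 or 3 were at 0 in each high class and 3 to 9 in each low class. Mitochondrial genes took 2.43% to 10.2% of UMIs in the high classes and 1.59% to 10.2% in the low ones. The part of either in the result was not tested. Whether the mitotic difference of a member depended on treatment was tested in the same model. In edgeR 0 of the 31 members passed, as 0% of all genes did, and every member had an adjusted p of 1. An unadjusted p under 0.05 was found for 1 member, HNRNPH3, and for 3.04% of all genes.

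**Figure D4:**
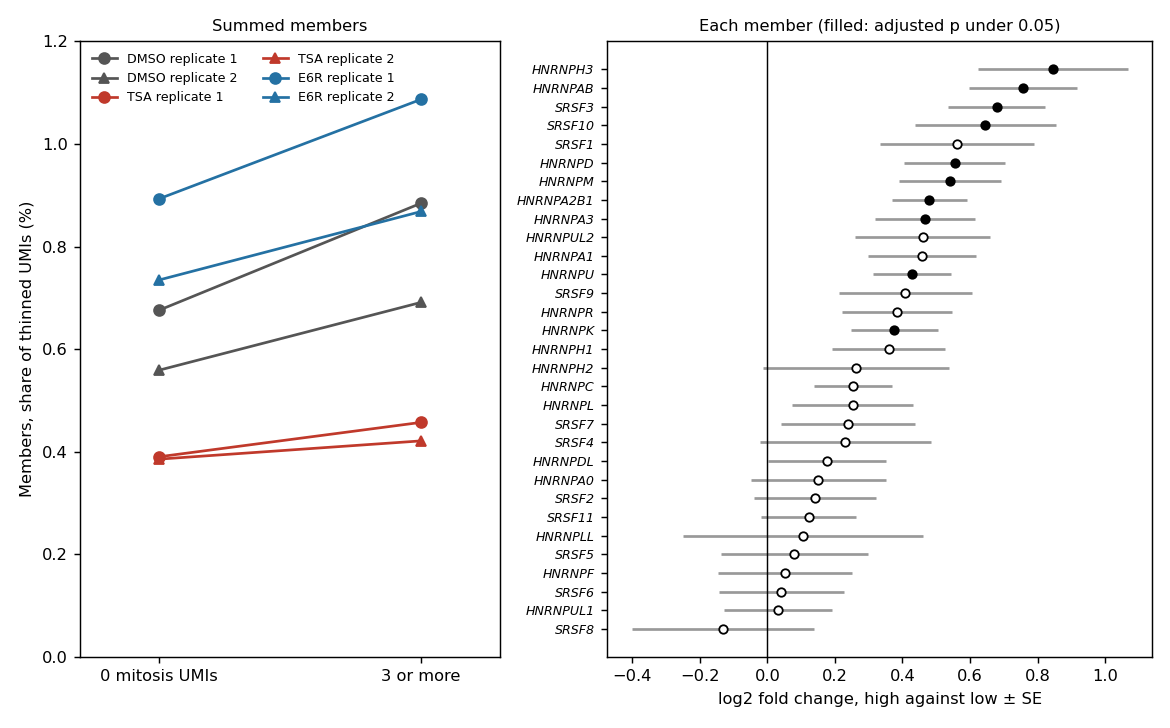
Left, share of UMIs taken by the 38 members (y axis, percent) in cells with 0 and with 3 or more mitosis UMIs of 1000, with 1 line per library. Right, log2 fold change of each of the 31 tested members between the classes (x axis) with its standard error, filled for the 10 with an edgeR adjusted p under 0.05. All 6 lines rise from left to right, and SRSF8 at -0.13 is the only fitted value below 0.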

How the data were processed

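The data were the deposited matrices of 6 Seq-Well S3 libraries, holding whole-number UMI counts per gene and barcode that the authors had not normalized. STARsolo 2.7.9a and GRCh38 are listed per the submitters' processing notes. For the annotation, barcode selection and strand rule the sources used here give nothing.

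A barcode was kept as a cell if it had 500 or more genes and no more than 20% mitochondrial UMIs (17589 cells). UMIs were summed per library, since cells are not replicates, and no doublet caller was run. The 6 sums were fitted together with edgeR 4.0.16 (R 4.3.3): TMM, filterByExpr, quasi-likelihood test, group as the only term, Benjamini-Hochberg adjustment over 16763 genes. Standard errors come from the F statistic. The mitotic comparison used 12 sums, library as a block and 9250 genes. DESeq2 1.42.0, other scalings, filters, cell sets and left-out libraries were alternatives. An exact permutation test of 2 libraries against 2 cannot go below p = 0.333, so none is given. The fits were also run on simulated counts, with a spread set below the one fitted to these data. No outcome of that run is given, so it does not show the error rates of the fits here. Replicates did not agree within counting noise (chi-square per degree of freedom 17.1 to 70.0).

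Members, lists, tests and the rule for named genes were chosen with earlier results of these data known. Named were all members called in a comparison (with more than 12, the 6 highest and 6 lowest), 8 members regardless of result, and up to 3 rises and 3 falls per further list. A gene named by this rule is not reported here. Members named beyond this were chosen after their values were seen. Promoters are RefSeq's (GRCh38.p14), gene positions GENCODE 29 (GRCh38).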

Additional observations from a re-analysis of the deposited data

How the results depend on the processing

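For TSA against DMSO the number of members called by edgeR, 16, stayed within 1.5 times in 15 of 19 alternatives. It was 1 in cells without mitosis UMIs, where 34 to 200 cells per library and 29 members remained, and ranged from 2 to 17 with a library left out. For E6R against DMSO, where edgeR called 0 and 18 had an unadjusted p under 0.05, DESeq2 called 4 and edgeR without the low-count filter 11 (3.47% of all genes were called there); with a library left out it was 0 each time. For E6R against TSA the 23 calls became 6 in cells without mitosis UMIs and 15 to 26 with a library left out. The mitotic comparison, with 10 calls, gave 6 with total counts, 3 with DESeq2, 23 with unthinned UMIs and 6 to 9 with a library left out; the cause of these shifts was not tested. The difference between treatments was called for 0 members in every alternative run. No called member changed sign in any alternative. Shares of all genes are given only where stated, so the other counts have no background beside them. Leaving out the mitochondrial and ribosomal protein genes, chosen after seeing the data, gave 16, 0 and 26 calls.

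With the replicate number as a block, 18 members were called for TSA against DMSO, 0 for E6R against DMSO and 25 for E6R against TSA, which included all earlier calls. Deviations of same-numbered libraries correlated over 7515 genes with r = 0.242 (DMSO and TSA), 0.564 (DMSO and E6R) and 0.166 (TSA and E6R), but the labels give only a number and each comparison has 2 pairs, so the pairing is a hint from the data. The DMSO libraries were the shallowest, with 4206366 and 4793493 UMIs.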
